A study of Mus musculus with 30 samples.

Results

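The microRNAs (miRNAs) miR-21, miR-132, miR-146a and miR-155, known as products of inflammatory signalling, were measured in the hearts of mice given carbon black nanoparticles through the windpipe. They were taken by the names printed on the array, mmu-miR-21, mmu-miR-132, mmu-miR-146a and mmu-miR-155, and are 4 of the 1136 miRNAs in the series' value table, of which 1079 are from mouse. All 4 passed the detection filter described here and are among the 306 mouse miRNAs tested.

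Female C57BL/6 mice, bought at 5 to 6 weeks of age, received a 40 µl instillation followed by 150 µl of air. The exposed mice were given 162 µg Printex 90, a commercial carbon black of nanosized particles, and were killed after 1 day (6 mice), 3 days (5 mice) or 28 days (5 mice). The control mice were given the suspending fluid with 0 µg of particles and were killed on the same days (4, 6 and 4 mice). That fluid, shared by every group, was 0.9% sodium chloride with 10% acellular lavage fluid from mouse lungs, and the controls were therefore instilled too. The series text describes 6 mice per group, and the 30 samples listed here were used. Each mouse gave its own RNA from a random heart section holding both ventricles, hybridised to a 1-colour Agilent miRNA array. The labels give no uninstilled mice and no age at instillation.

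As background, a miRNA is cut from a hairpin precursor, and 1 arm usually becomes the guide that a silencing complex uses to find messenger RNAs. Target choice rests mainly on the seed, the bases near the guide's 5′ end, so miRNAs with the same seed can share targets. Of the 4, miR-146a and miR-155 are transcribed after activation of NF-κB in immune cells, miR-132 follows the transcription factor CREB and is also induced in myeloid and endothelial cells, and miR-21 is abundant in many tissues and is known in the heart for its rise in fibroblasts after injury. miR-146a restrains Toll-like receptor signalling by targeting Irak1 and Traf6, and miR-155 releases it by targeting Socs1.

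The mature guides of the 4 are shown because the array's calls rest on telling these sequences from those that share their seed. Sequences are those of RefSeq for build GRCm38.p6, in which all 4 names were matched, and capitals mark the seed (bases 2 to 8, counted from 1 at the 5′ end). The array's own design uses build mm9, and no coordinate was taken from it.
miR-21 (miR-21a-5p): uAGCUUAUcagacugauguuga
miR-132 (miR-132-3p): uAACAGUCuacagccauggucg
miR-212-3p: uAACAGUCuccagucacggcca
miR-146a (miR-146a-5p): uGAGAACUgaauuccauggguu
miR-146b (miR-146b-5p): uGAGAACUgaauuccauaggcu
miR-155 (miR-155-5p): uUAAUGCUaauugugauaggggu
The seeds of miR-132 and miR-212-3p are identical, as are those of miR-146a and miR-146b. miR-132 differs from miR-212-3p by A10C, C14U, U17C, U20C and G22A, and miR-146a differs from miR-146b by G18A and U21C. In RefSeq miR-21c also has the seed of miR-21, but it has no probe on the array, and miR-155 has no seed relative there.

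The guide of miR-21 lies in the gene Mir21a at chr11:86584120-86584141, minus strand. That of miR-132 lies in Mir132 at chr11:75173723-75173744, plus strand, with the Mir212 hairpin 203 bases away on the same strand. The miR-146a guide is in Mir146 at chr11:43374435-43374456, minus strand, and the miR-155 guide in Mir155 at chr16:84714143-84714165, plus strand. The hairpins are shown with the guide in capitals, since the array also measured the opposite arm of each.
miR-21 hairpin: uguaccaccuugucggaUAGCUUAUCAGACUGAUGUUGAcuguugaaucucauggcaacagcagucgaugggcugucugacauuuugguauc
miR-132 hairpin: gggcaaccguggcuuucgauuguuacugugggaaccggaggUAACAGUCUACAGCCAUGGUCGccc
miR-146a hairpin: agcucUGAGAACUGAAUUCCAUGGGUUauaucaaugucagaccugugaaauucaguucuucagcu
miR-155 hairpin: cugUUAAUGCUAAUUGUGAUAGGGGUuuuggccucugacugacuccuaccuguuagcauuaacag
The guide is the 5′ arm in miR-21, miR-146a and miR-155 and the 3′ arm in miR-132.

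Scanner signal was held for 29 of the 30 arrays. The file of Printex 90 day 3 replicate 3 lists miRNA names without signal, so that group has 4 mice in every fit, and its values come only from the series' value table. Between 231 and 339 mouse miRNAs were detected per array, with 18.4% to 27.5% of the 45440 spots well above background and 0 saturated spots. The cardiac muscle miRNAs miR-1a, miR-133a, miR-208a-3p and miR-499 were all tested, with miR-1a group means between 15.93 and 16.00, and markers of leukocytes, red cells, endothelium, fibroblasts and smooth muscle were also above background in the sections. In such bulk tissue fewer cells of a type and less RNA per cell cannot be told apart. Levels given here are log2 scaled signals, which compare mice for 1 miRNA and do not rank the amounts of different miRNAs.

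Each guide arm was detected, and none of the opposite arms was (0 of 4). A probe was called detected on an array when at least a share of 0.5 of its spots was well above background. miR-21 and miR-146a were detected on 29 of 29 arrays by both of their probes, and miR-155 by 1 of its 2 probes on 29 arrays and by the other on 24. miR-132 was the dimmest call: 1 of its 2 probes was detected on 28 arrays and was used, and the other, detected on 4, was left out. The opposite arms miR-21*, miR-132*, miR-146a* and miR-155* were detected on 0 of 29 arrays, and their best probe on any array had 10%, 10%, 5% and 5% of its spots above background. miR-146b was also detected on 0 arrays, with at most 25% of spots above background. miR-212-3p, the partner of miR-132, was detected on 29 arrays.

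**Figure D1:**
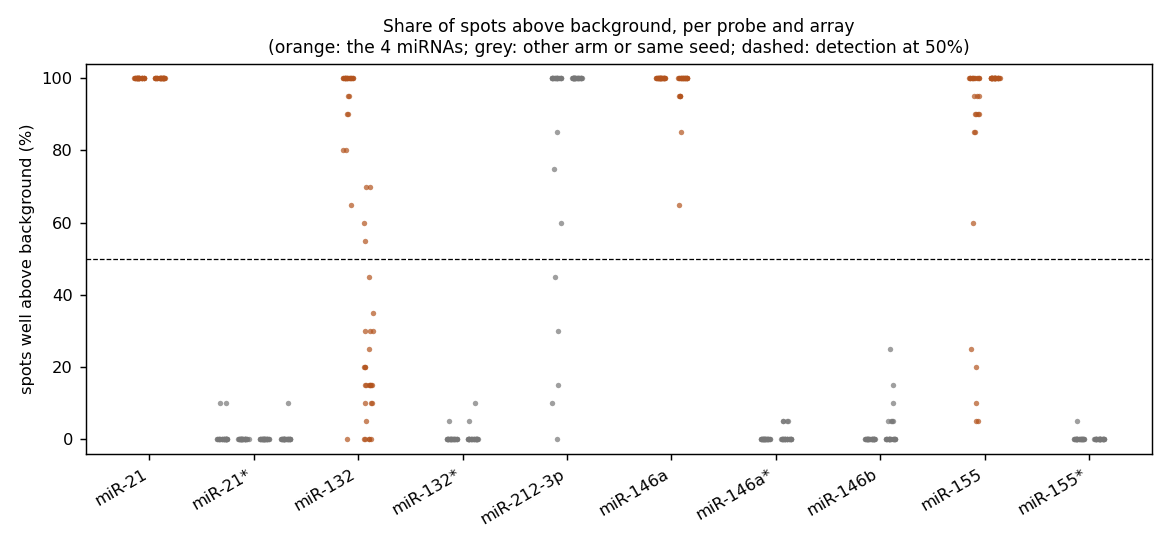
Each point is 1 probe on 1 array; the vertical axis is the percent of that probe's spots well above background. The guides and miR-212-3p reach 100%, while the opposite arms and miR-146b stay at or below 25%.

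The 2 probes of a miRNA moved together across the 29 arrays, with Pearson r of 0.88 for miR-21, 0.75 for miR-132, 0.95 for miR-146a and 0.75 for miR-155, as a description of probes that share arrays and RNA. The spread between mice was 3.15 to 18.4 times the standard error of a kept probe's mean over its spots (about 20 spots a probe).

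Arrays that stand apart are given before the comparisons. Of these, 2 lie in the Printex 90 day 1 group, and the third, Printex 90 day 28 replicate 4, was the highest or lowest of all arrays for 73 miRNAs but for none of the 4. Replicate 5 of the day 1 group had 19.2% of spots above background, and it was at the extreme for 68 of the 306 miRNAs. Among these it had the highest miR-21 of all 29 arrays, at 11.21 where the others lay between 10.35 and 10.74. It also had the lowest miR-132, at 4.26 against 4.81 to 5.64, the lowest miR-155, at 5.56 against 5.69 to 6.18, and the lowest miR-212-3p, at 5.27 against 5.62 to 7.19. On this array 0% of the spots of the kept miR-132 probe were well above background. The 4.26 there is thus the measured value of an undetected probe, close to the floor of 4.04. Its miR-146a, at 6.51, was inside the range of the others (6.10 to 7.56).

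Markers of other cell types moved with that mouse. The smooth muscle miRNAs miR-143 and miR-145 were the highest of all arrays, at 11.62 against 9.78 to 10.53 and at 7.80 against 6.27 to 7.16. Endothelial miR-126-3p and miR-126-5p, cardiac miR-133a and lymphocyte miR-150 were the lowest of all arrays. For fibroblast miR-214 and for both arms of miR-199a this mouse was among the 3 highest arrays but inside the range of the others, and likewise for red cell miR-144, while miR-144* was the highest of all. Myeloid miR-223, at 8.22, lay in the middle of the others (7.97 to 8.59). Leukocyte miR-142-3p and miR-142-5p lay above the median of the other arrays, by 0.62 and 0.24, but inside their range. Cardiac miR-1a, at 16.04, lay inside the range of the others (15.74 to 16.11). The part of cell makeup or of array brightness in these values was not tested.

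**Figure D2:**
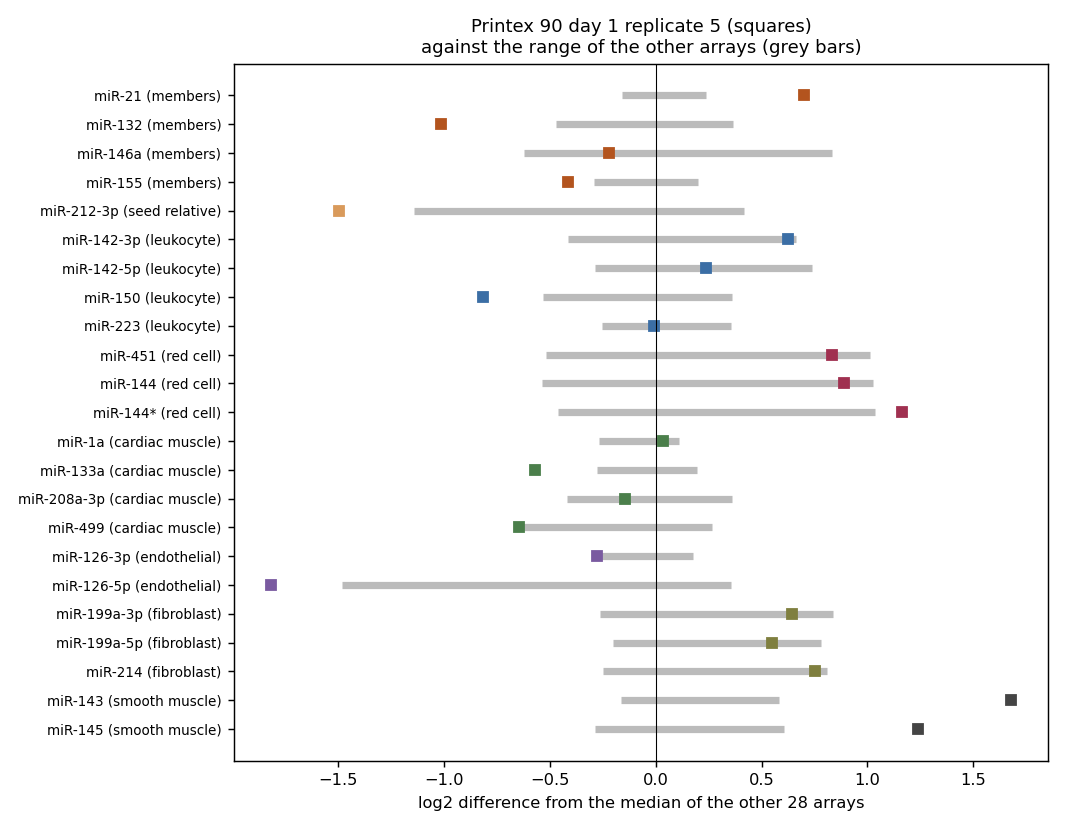
Squares give Printex 90 day 1 replicate 5 as the log2 difference from the median of the other 28 arrays; grey bars give the range of those arrays. miR-21, miR-143 and miR-145 lie above the bars, and miR-132, miR-155 and miR-212-3p below them.

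Replicate 4 of the same group was at the extreme for 115 of 306 miRNAs, the lowest for 106 of them, with 22.4% of spots above background. It had the lowest miR-146a of all arrays (6.10). Its miR-21 (10.35) and miR-132 (4.81) were next to the lowest of the 29, and its miR-155 (6.09) lay inside the range of the others. The day 1 differences of the 4 miRNAs, of miR-212-3p and of the marker and related lists are given with and without these 2 mice.

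The first comparison asked whether the 4 miRNAs differed in the heart 1 day after instillation, when lung inflammation after particles is known to be under way. None of the 4 passed (0 of 4), against 0% of all 306 miRNAs. By limma, 2 of the 306 had an unadjusted p under 0.05. Of the 4, 3 stood lower in exposed mice and 1 higher, with a median log2 difference (Printex 90 minus vehicle) of −0.16, against −0.066 over all tested miRNAs. The sign of miR-21 turned without scaling, and that of miR-155 turned with the 75th percentile over all probes and with quantile normalization.

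miR-146a had the largest of these differences. Its level on day 1 had a lowest value of 6.10, a median of 6.51 and a highest value of 6.73 in the 6 Printex 90 mice, against 6.62, 6.62, 6.94 and 7.05 in the 4 vehicle mice. All 6 exposed mice lay below the vehicle mean, but the 2 groups overlapped. The difference was −0.31 ± 0.17 (SE; 95% interval −0.65 to 0.035; adjusted p = 0.742) by limma, and an exact permutation test gave p = 0.0762 (two-sided, 6 against 4 mice; the smallest it can give is 0.00952). The difference was −0.31 ± 0.18 without replicate 5 and −0.23 ± 0.17 without replicate 4, and ranged over the 4 slides from −0.63 to 0.026. Both probes had the same sign, at −0.29 and −0.33.

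miR-132, on day 1, had a lowest value of 4.26, a median of 5.10 and a highest value of 5.59 in the 6 Printex 90 mice, against 5.12, 5.28, 5.28 and 5.39 in the 4 vehicle mice. The exposed mice spread over the vehicle mice in both directions, with 4 of 6 below the vehicle mean. The difference was −0.25 ± 0.17 (SE; 95% interval −0.59 to 0.10; adjusted p = 0.742) by limma. Without replicate 5 it was −0.095 ± 0.14 (adjusted p = 0.942), and without replicate 4 it was −0.20 ± 0.18. Within slides it ran from −0.36 to −0.12, below 0 on 4 of 4 slides, a count that leans on the mice that stand apart. Slide 2, at −0.36, held replicate 5 (4.26) and replicate 6 (5.59) against 5.28 in its vehicle mouse, so replicate 5 sets its sign. Slide 1 held replicate 3 (5.28) and replicate 4 (4.81) against 5.28. The seed partner of miR-132, miR-212-3p, was at −0.20 ± 0.37 (SE, adjusted p = 0.898 by limma). Its values were 5.27 to 6.92 in exposed mice and 5.66 to 7.06 in vehicle mice. Without replicate 5 the difference of miR-212-3p was 0.013 ± 0.35, so that 1 mouse sets its sign, and without replicate 4 it was −0.23 ± 0.39.

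miR-21, the miRNA of cardiac fibroblast activation, had a lowest value of 10.35, a median of 10.50 and a highest value of 11.21 in the 6 Printex 90 mice on day 1, against 10.44, 10.50, 10.56 and 10.62 in the 4 vehicle mice. The highest exposed value is that of replicate 5, and the other 5 exposed mice lay below the vehicle mean. The difference was 0.045 ± 0.11 (SE; 95% interval −0.19 to 0.28; adjusted p = 0.918) by limma with replicate 5 and −0.081 ± 0.073 (adjusted p = 0.883) without it, so that 1 mouse sets its sign. Without replicate 4 it was 0.091 ± 0.12. The SD of the exposed group was 0.32 with replicate 5 and 0.083 without it, against 0.077 in vehicle mice.

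miR-155, an amplifier of myeloid activation, had a lowest value of 5.56, a median of 5.94 and a highest value of 6.09 in the 6 Printex 90 mice on day 1, against 5.97, 5.97, 5.99 and 6.03 in the 4 vehicle mice. The 4 vehicle mice lay close together, and exposed mice fell on both sides of them. The difference was −0.082 ± 0.087 (SE; 95% interval −0.26 to 0.098; adjusted p = 0.809) by limma, −0.014 ± 0.075 without replicate 5 and −0.12 ± 0.088 without replicate 4. The dimmer of its 2 probes was detected in 4 of 6 exposed and 4 of 4 vehicle mice on that day.

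Related miRNAs did not pass either. The list of other miRNAs linked to inflammatory signalling had 13 of 14 names on the array, of which 7 were tested and 0 called. On day 1, 4 were higher and 3 lower, with miR-181c at −0.075, let-7e at 0.10, myeloid miR-223 at −0.066 and miR-98 at 0.079. The split was 4 higher and 3 lower without replicate 5 as well, and 3 higher and 4 lower without replicate 4. The names not tested include miR-9, miR-135b, miR-146b, miR-147, miR-187 and miR-203, each detected on 0 arrays. The listed name not found, miR-212, is on the array as miR-212-3p, which was tested and is given above with miR-132. Of the leukocyte markers 2 of 4 were higher and 0 were called, with miR-142-3p at 0.27 ± 0.18 (SE), at 0.18 ± 0.18 without replicate 5 and at 0.26 ± 0.19 without replicate 4. Red cell miR-451, miR-144 and miR-144* were higher in 3 of 3, at 0.47, 0.42 and 0.57 (adjusted p = 0.742 each by limma), and miR-451 spanned 13.60 to 14.64 in exposed and 13.35 to 13.91 in vehicle mice. The red cell median of 0.47 was 0.38 without replicate 5 and 0.45 without replicate 4, with 3 of 3 higher each time. Fibroblast markers were higher in 3 of 3 and smooth muscle markers in 2 of 2 with replicate 5, against 0 of 3 and 0 of 2 without it, so that 1 mouse sets both counts; without replicate 4 they were 3 of 3 and 2 of 2. Cardiac muscle markers were higher in 1 of 4 with all mice and without either mouse, and 0 of these markers were called by limma. Their part in the values of the 4 miRNAs was not tested.

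Day 3 was compared the same way, with 4 exposed and 6 vehicle mice. None of the 4 passed (0 of 4, against 0% of the 306; 1 of 306 had an unadjusted p under 0.05 by limma). Of the 4, 3 were higher in exposed mice and 1 lower, with signs that turned for miR-21 and miR-155 on the scale of all probes and for miR-132 without scaling, and the ranges of the groups overlapped for each.

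miR-21 had 10.47, 10.55, 10.64 and 10.67 in the 4 Printex 90 mice on day 3, against a lowest value of 10.35, a median of 10.49 and a highest value of 10.74 in the 6 vehicle mice, a difference of 0.072 ± 0.11 (SE; 95% interval −0.16 to 0.31; adjusted p = 0.999) by limma. miR-132 had 4.99, 5.12, 5.21 and 5.31 in the 4 Printex 90 mice, against a lowest value of 5.00, a median of 5.29 and a highest value of 5.48 in the 6 vehicle mice, with a difference of −0.089 ± 0.17. All 4 exposed values of miR-132 lay within or below the vehicle range, the lowest of them just below it. miR-146a had 6.47, 6.56, 6.86 and 6.87 in the 4 Printex 90 mice, against a lowest value of 6.30, a median of 6.60 and a highest value of 6.82 in the 6 vehicle mice, with a difference of 0.11 ± 0.17, opposite in sign to day 1. miR-155 had 5.84, 5.95, 6.05 and 6.11 in the 4 Printex 90 mice, against a lowest value of 5.69, a median of 5.89 and a highest value of 6.09 in the 6 vehicle mice, with a difference of 0.083 ± 0.09. Here 3 of 4 exposed mice lay above the vehicle mean of miR-155. Each of these had an adjusted p of 0.999 by limma.

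The mouse of that group without scanner signal, Printex 90 day 3 replicate 3, has values only in the deposited series table, in which scale and centring between columns are not stated. It stood there at 10.55 for miR-21 and 6.90 for miR-155, inside the range of the other 4 mice of its group. Its miR-132, at 6.30, and its miR-146a, at 7.20, were below the other 4 (6.33 to 6.39 and 7.32 to 7.61).

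By day 28, 0 of 4 passed, against 0% of the 306, of which 1 had an unadjusted p under 0.05 by limma. miR-21 had 10.41, 10.47, 10.49, 10.59 and 10.59 in the 5 Printex 90 mice, against 10.42, 10.43, 10.52 and 10.66 in the 4 vehicle mice, and its difference was 0.0025 ± 0.12 (SE; 95% interval −0.24 to 0.25; adjusted p = 0.998) by limma. miR-132 had 5.03, 5.27, 5.28, 5.42 and 5.64 in the 5 Printex 90 mice, against 5.14, 5.29, 5.42 and 5.46 in the 4 vehicle mice, a difference of −0.0014 ± 0.18 (SE). For both the groups lay over each other.

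For miR-146a the day 28 values were 6.56, 6.78, 6.80, 6.99 and 7.56 in the 5 Printex 90 mice, against 6.41, 6.93, 7.01 and 7.02 in the 4 vehicle mice, a difference of 0.099 ± 0.17 (SE; 95% interval −0.26 to 0.46; adjusted p = 0.906) by limma. The exposed group holds the highest miR-146a of all 29 arrays (7.56), and the vehicle group a mouse at 6.41 well below its other 3. Without that vehicle mouse, replicate 1, the difference was −0.046 ± 0.18, and without the exposed mouse at 7.56, replicate 2, it was −0.057, so either mouse sets its sign. With the 75th percentile over all probes it was −0.074. miR-155 had 5.94, 6.08, 6.11, 6.14 and 6.18 in the 5 Printex 90 mice, against 5.95, 5.96, 6.01 and 6.14 in the 4 vehicle mice. Its difference was 0.076 ± 0.091 (SE; 95% interval −0.11 to 0.26; adjusted p = 0.906) by limma, with 4 of 5 exposed mice above the vehicle mean, and it turned to −0.10 with the 75th percentile over all probes. Red cell markers were higher in 3 of 3 on day 28 (median 0.42, and 0.46 without Printex 90 day 28 replicate 4) and in 0 of 3 on day 3 (median −0.18). On day 28, 2 of 4 leukocyte, 0 of 4 cardiac muscle, 0 of 2 endothelial, 0 of 3 fibroblast and 0 of 2 smooth muscle markers were higher. Cardiac miR-208a-3p, at −0.25 ± 0.12 (SE, unadjusted p = 0.0389, adjusted p = 0.906 by limma), was the 1 of 306 with an unadjusted p under 0.05. Of all these markers 0 were called, and their part was not tested.

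**Figure D3:**
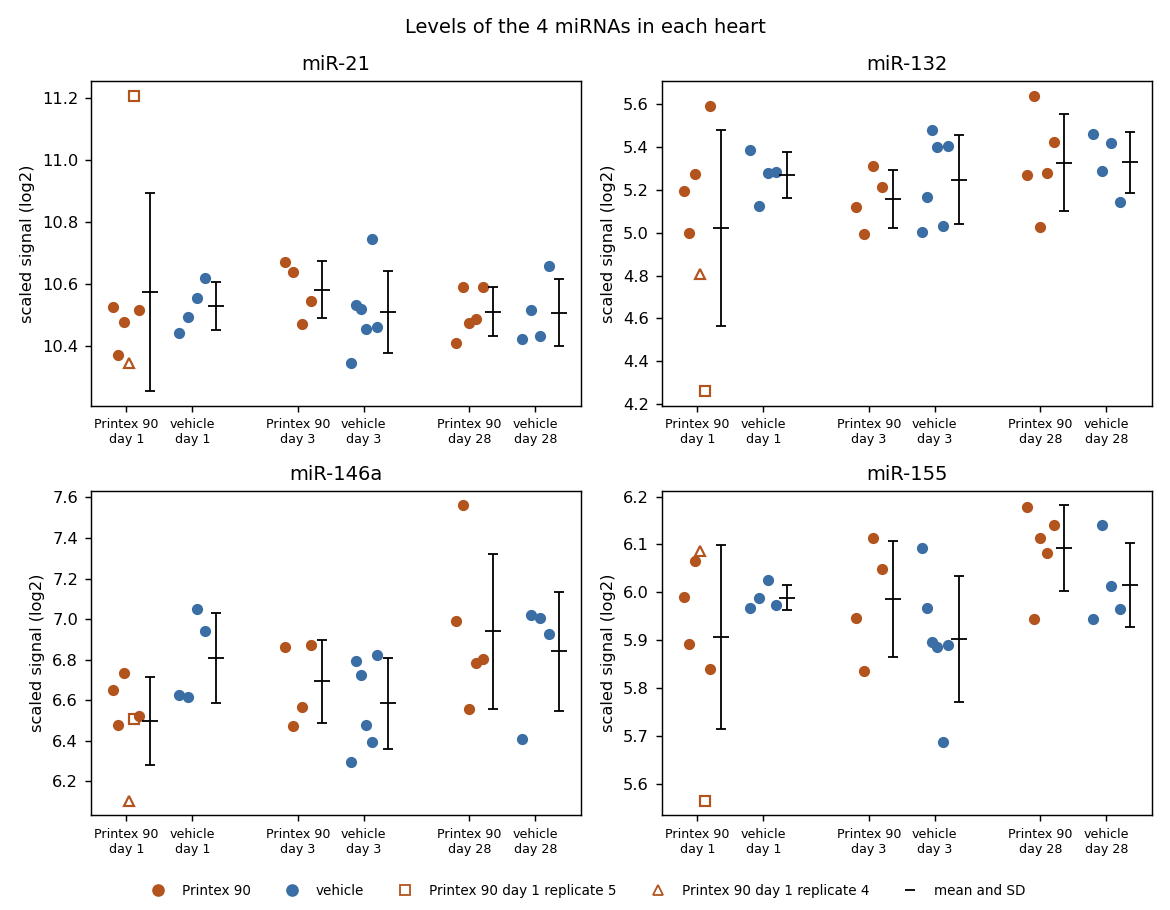
Each point is 1 heart; the vertical axis is the log2 scaled signal of 1 miRNA, and black bars give the mean and SD of each group. The groups overlap in every panel, and the open square and triangle mark Printex 90 day 1 replicates 5 and 4.

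Averaged over the 3 days the differences were 0.040 ± 0.067 (SE; 95% interval −0.097 to 0.18; adjusted p = 0.994) for miR-21, −0.11 ± 0.099 (SE; 95% interval −0.32 to 0.090; adjusted p = 0.994) for miR-132, −0.034 ± 0.098 (SE; 95% interval −0.24 to 0.17; adjusted p = 0.994) for miR-146a and 0.026 ± 0.051 (SE; 95% interval −0.079 to 0.13; adjusted p = 0.994) for miR-155, by limma. None passed (0 of 4, against 0% of 306, with 0 unadjusted p under 0.05). A p that misses the threshold does not show that the groups are alike, so the intervals are the informative values. On each day all 4 intervals lay within 2-fold in either direction, and on days 3 and 28 and in the mean of days all 4 lay within 1.5-fold. On day 1, 2 of 4 lay within 1.5-fold, and the widest reached 1.57-fold, for miR-146a, whose estimate was 0.81-fold (95% interval 0.64 to 1.02).

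**Figure D4:**
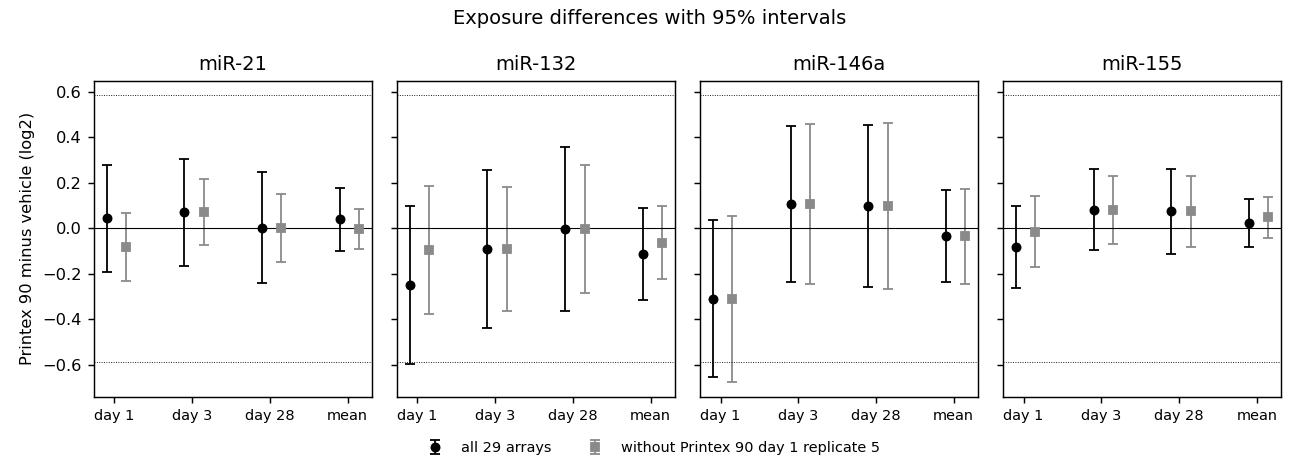
Points give the log2 difference, Printex 90 minus vehicle, with 95% intervals from limma; dotted lines mark 1.5-fold in either direction. All intervals include 0, and grey squares, without Printex 90 day 1 replicate 5, differ from the black points most for miR-21 and miR-132 on day 1.

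Time was compared within each treatment. The test of whether the exposure difference changed between days called 0 of 4, against 0% of 306 miRNAs, with miR-146a at an adjusted p of 0.860 by limma. Day within Printex 90 mice called 0 of 4, against 0.327% of 306. miR-146a was closest, at an unadjusted p of 0.0327 and an adjusted p of 0.890 by limma, with means of 6.50 ± 0.22 (SD, n = 6) on day 1, 6.69 ± 0.21 (SD, n = 4) on day 3 and 6.94 ± 0.38 (SD, n = 5) on day 28. In vehicle mice, where the count was 0 of 4 against 1.31% of 306, the means were 6.81 ± 0.22 (SD, n = 4), 6.58 ± 0.22 (SD, n = 6) and 6.84 ± 0.29 (SD, n = 4). The miR-146a result in Printex 90 mice leaned on single mice. Its unadjusted p by limma was 0.0849 without day 1 replicate 4 and 0.0460 without day 1 replicate 5. Without day 28 replicate 2, the mouse at 7.56, its F by limma was 2.14, against 3.93 with all mice. Across the 6 groups the highest and lowest group means differed by 0.074 for miR-21, 0.31 for miR-132, 0.44 for miR-146a and 0.19 for miR-155.

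The order of the 6 groups can be given only as a description. For miR-146a and miR-155 the day 28 Printex 90 mice stood highest, then day 28 vehicle and day 1 vehicle; Printex 90 day 1 mice were lowest for miR-146a and miR-132. For miR-21 Printex 90 day 3 and day 1 mice led. No 2 neighbouring groups in any of the 4 orders differed by more than the residual SD, and the ranges of all neighbours overlapped. Sorting by mean keeps the gaps between neighbours small, so this says little. From the highest to the lowest group the span was 0.42 residual SD for miR-21 and 1.16 for miR-132. It was 1.67 for miR-146a and 1.48 for miR-155. The residual SD between mice of a group was 0.17 for miR-21, 0.27 for miR-132, 0.26 for miR-146a and 0.13 for miR-155, against a median of 0.27 over the 306 miRNAs.

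Slides were a batch, with 4 slides scanned on 2 days and 2 of the slides lacking 1 of the 6 groups. The slide means of a member differed by at most 0.23. With slide as a random block the correlation within a slide was 0.14, and 0 of the 306 miRNAs passed on any day. Within slides the day 1 difference of miR-21 ranged from −0.14 to 0.24 and that of miR-155 from −0.27 to 0.051, each below 0 on 2 of 4 slides, and on 3 slides the day 28 difference of miR-146a ranged from −0.12 to 0.58.

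Whether the 4 miRNAs varied together from mouse to mouse was asked over the 29 arrays, in a family of 10 relations (6 pairs and 4 relations to the share of spots well above background). miR-21 and miR-155 had Pearson r of −0.68 (permutation adjusted p = 0.0036) and Spearman rho of −0.35 (adjusted p = 0.196). Without the 2 arrays farthest from the median of miR-21 the r was −0.26, so the relation rests on those arrays. Without Printex 90 day 1 replicate 5 it was −0.44 (permutation adjusted p = 0.0872). Within slides it ran from −0.73 to 0.12. miR-21 and miR-132 had r of −0.53 (permutation adjusted p = 0.0515) with that mouse and 0.050 without it.

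miR-132 and miR-146a had r of 0.48 (permutation adjusted p = 0.041) and rho of 0.43 (adjusted p = 0.112), with r of 0.43 without the 2 farthest arrays and 0.14 to 0.85 within slides. Without replicate 5 it was 0.54 (permutation adjusted p = 0.033), and on residuals from group means 0.37 (adjusted p = 0.119). It kept its sign under every scaling tried. The pairs of miR-21 with miR-132 and with miR-155 did not: with the 75th percentile over all probes, r was 0.44 for miR-21 and miR-132 and 0.59 for miR-21 and miR-155. The level of miR-155 had r of 0.55 against the share of spots above background (permutation adjusted p = 0.0102) and rho of 0.50 (adjusted p = 0.0576). Without replicate 5 this r was 0.42 (permutation adjusted p = 0.0872), and with all arrays under that other scaling it was −0.42.

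**Figure D5:**
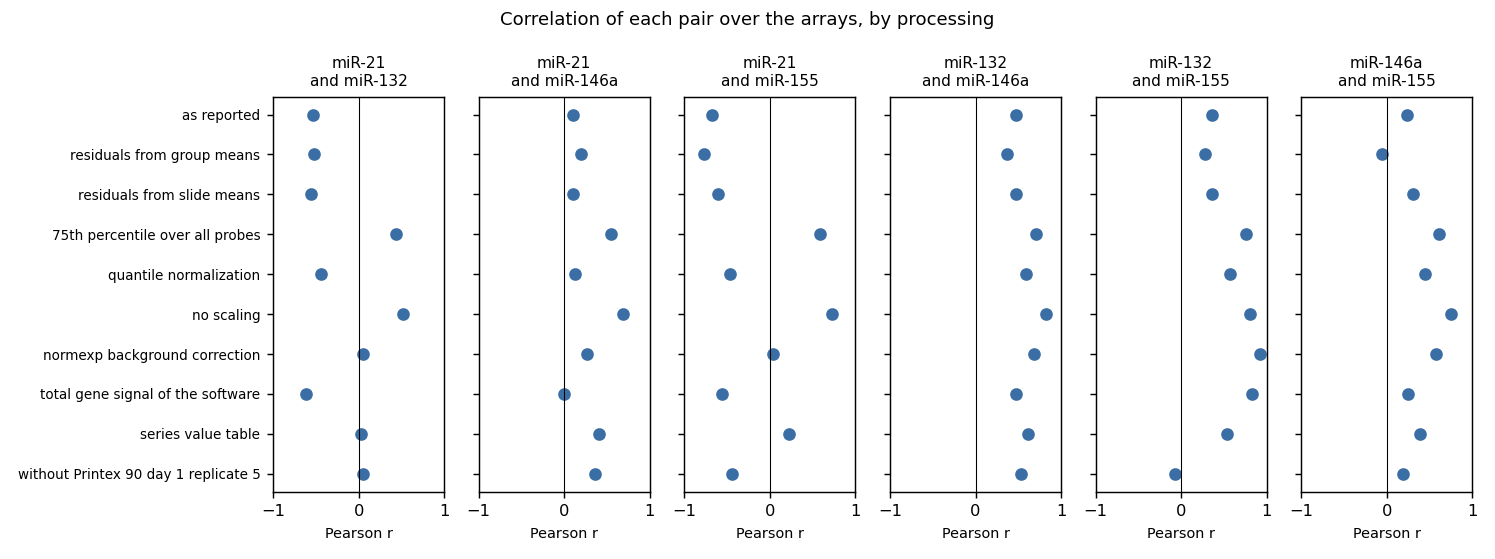
Each panel is a pair of miRNAs and each row a way of processing the arrays; the horizontal axis is Pearson r over the arrays. The miR-132 and miR-146a pair stays above 0 in all rows, and both pairs of miR-21 with miR-132 and miR-155 lie on both sides of 0.

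The tested miRNAs most like each member are a description over 29 arrays that share brightness and scaling. Those of miR-21 were miR-140 (r 0.86), miR-140* (0.85) and miR-193 (0.82). Without replicate 5 they were myeloid miR-223 (0.85), miR-199b* (0.69) and the fibroblast miRNA miR-199a-3p (0.67), so that mouse decided all 3 names. For miR-132 they were miR-219-5p (0.84) and the muscle miRNAs miR-133a (0.81) and miR-133b (0.81), against miR-331-3p (0.78), miR-378* (0.77) and miR-27a (0.76) without it. For miR-146a they were endothelial miR-126-3p (0.52), miR-335-5p (0.50) and miR-132 (0.48), and without it miR-132 (0.54), miR-24 (0.51) and miR-126-3p (0.51). For miR-155 they were lymphocyte miR-150 (0.65), miR-139-5p (0.65) and miR-30b (0.59), and without it miR-30e* (0.73), miR-378 (0.65) and miR-302c* (0.59).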

How the data were processed

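MicroRNA was measured on 30 single-mouse heart samples on 1-colour (Cy3) Agilent arrays. The authors read the scans with Agilent's Feature Extraction 10.7.3.1, per the file headers, and the deposited scanner files hold background-subtracted, detrended signal intensity per spot on a linear scale with flags. The deposited series table holds log2 intensity per miRNA with scale and centring not given in the sources used here; its column medians lie between 5.78 and 5.82, and it served as an alternative. Groups came from the labels, and no label numbers mice across groups.

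Spots of a probe were averaged without control and outlying spots, and each array was divided by the 75th percentile over 418 probes that every array detected. Signals below a floor of 16.5, the lowest detected value (log2 4.04), were set to the floor. Probes detected in 4 or more mice of 1 group were kept and averaged per miRNA, giving 621 probes and 306 miRNAs. Groups were fitted together in limma 3.58.1 (R 4.3.3) with 1 mean per group, Benjamini-Hochberg adjustment over the 306 and a threshold of 0.05. Correlations used 100000 permutations in SciPy 1.17.1. The fit on 29 arrays replaces the 30 planned. The normexp alternative used the median pixel signal, since no mean signal column was held. The scripts were tested on simulated data. The number of arrays limits the precision.

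The 4 miRNAs, the related list and the markers were chosen with earlier results of these data known, and so support nothing by themselves. Named were the 4, miRNAs sharing a hairpin or seed with them, up to 4 of the related list with the smallest p, and the 3 most alike by Pearson r. Alternatives changed scaling, background correction, probe summary, floor, filter, slide, brightness and the mice included.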

Additional observations from a re-analysis of the deposited data

Results flagged for a closer look

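Of 24 groups of mice tested, counting each of the 4 miRNAs in each of 6 groups, 2 held a mouse whose gap to its nearest neighbour was large against the whole range of the group. Chance alone gives about 1 in 20 groups. Printex 90 day 1 replicate 5 had a miR-21 level of 11.21, with the nearest of its group at 10.53. Vehicle day 28 replicate 1 had a miR-146a level of 6.41, with the nearest of its group at 6.93.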

How the results depend on the processing

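No paired analysis was possible because the labels give no replicate numbers that groups share. Over the 16 differences of the 4 miRNAs, 772 alternative values were computed. Those within a slide have no p, and those of the exact permutation test have no adjusted p. Of the rest, fitted by limma, 0 passed an adjusted p of 0.05 (smallest 0.456). In any exposure comparison 0 of 306 miRNAs were called under any alternative, save the first unfiltered fit described at the end. The 12 tests over days also passed 0 times (smallest adjusted p 0.480 by limma). Signs changed in 52 of the 772, a count that leaves out sign changes of differences within a slide. Many of the 772 could not change sign, so this share does not measure stability. Leaving out an array of another day leaves a daily difference as it was. The exact permutation test and the fit of only the groups compared also reuse the reported difference. The reported intervals of all 16 differences include 0.

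The following changed sign in a fit, or moved by more than the residual SD within a slide, on the log2 scale, and the cause was not tested. Sign changes within a slide that moved by less are not listed. Without scaling, the differences were miR-21 −0.15 on day 1, miR-132 0.034 on day 3, miR-21 −0.061 on day 28, miR-21 −0.0041 and miR-155 −0.0094 in the mean of days. With the share of spots above background as a covariate, the differences were miR-21 −0.0050 on day 1. Without the 4 dimmest arrays, the differences were miR-21 −0.098 and miR-155 0.020 on day 1, miR-21 −0.016 in the mean of days. Within slide 1, the differences were miR-21 −0.14, miR-146a −0.63 and miR-155 0.051 on day 1, miR-155 0.23 on day 3. Within slide 2, the differences were miR-21 0.24 and miR-155 −0.27 on day 1, miR-155 0.26 on day 3, miR-132 0.28 on day 28. With normexp, the differences were miR-132 0.062 and miR-155 0.072 on day 1, miR-155 −0.019 on day 3, miR-21 −0.00030 and miR-132 0.038 on day 28, miR-132 0.0095 and miR-146a 0.0056 in the mean of days. Within slide 3, the differences were miR-146a 0.026 on day 1, miR-155 −0.14 on day 3, miR-146a 0.58 and miR-155 0.23 on day 28, miR-146a 0.24 in the mean of days. With the 75th percentile over all probes, the differences were miR-155 0.091 on day 1, miR-21 −0.019 and miR-155 −0.0078 on day 3, miR-21 −0.17, miR-146a −0.074 and miR-155 −0.097 on day 28, miR-155 −0.0043 in the mean of days. With quantile normalization, the differences were miR-155 0.018 on day 1, miR-146a −0.067 and miR-155 −0.089 on day 28. With the series table, the differences were miR-155 0.065 on day 1, miR-155 −0.063 on day 3, miR-21 −0.078 and miR-155 −0.045 on day 28, miR-155 −0.014 in the mean of days. With the series table over 29 arrays, the differences were miR-155 0.065 on day 1, miR-155 −0.047 on day 3, miR-21 −0.078 and miR-155 −0.045 on day 28, miR-155 −0.0088 in the mean of days. With the software's total gene signal, the differences were miR-132 0.26 on day 3, miR-132 0.016 on day 28. Without a filter on dim probes, the differences were miR-132 0.012 on day 28.

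Leaving out each array in turn gave ranges that crossed 0 for miR-21 −0.081 to 0.091 on day 1, miR-21 −0.025 to 0.052 on day 28, miR-132 −0.080 to 0.074 on day 28, miR-146a −0.057 to 0.19 on day 28 and miR-21 −0.0023 to 0.056 in the mean of days.

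The correlations depended on the scaling, and those listed changed sign or side of the threshold; brightness is the share of spots above background. On residuals from group means, r was −0.52 for miR-21 and miR-132, 0.37 for miR-132 and miR-146a, −0.062 for miR-146a and miR-155 and −0.028 for miR-132 and brightness. On residuals from slide means, r was −0.56 for miR-21 and miR-132 and −0.0039 for miR-132 and brightness. With the 75th percentile over all probes, r was 0.44 for miR-21 and miR-132, 0.55 for miR-21 and miR-146a, 0.59 for miR-21 and miR-155, 0.76 for miR-132 and miR-155, 0.61 for miR-146a and miR-155, −0.80 for miR-21 and brightness, −0.47 for miR-132 and brightness, −0.40 for miR-146a and brightness and −0.42 for miR-155 and brightness. With quantile normalization, r was −0.45 for miR-21 and miR-132, 0.57 for miR-132 and miR-155, 0.45 for miR-146a and miR-155, −0.48 for miR-132 and brightness, −0.42 for miR-146a and brightness and −0.17 for miR-155 and brightness. Without scaling, r was 0.52 for miR-21 and miR-132, 0.69 for miR-21 and miR-146a, 0.73 for miR-21 and miR-155, 0.80 for miR-132 and miR-155, 0.75 for miR-146a and miR-155, 0.70 for miR-21 and brightness, 0.79 for miR-132 and brightness and 0.75 for miR-146a and brightness. With normexp, r was 0.055 for miR-21 and miR-132, 0.033 for miR-21 and miR-155, 0.93 for miR-132 and miR-155, 0.57 for miR-146a and miR-155, −0.74 for miR-132 and brightness, −0.34 for miR-146a and brightness and −0.71 for miR-155 and brightness. With the software's total gene signal, r was −0.61 for miR-21 and miR-132, −0.0066 for miR-21 and miR-146a, 0.83 for miR-132 and miR-155 and 0.54 for miR-132 and brightness. With the series table, r was 0.034 for miR-21 and miR-132, 0.22 for miR-21 and miR-155, 0.53 for miR-132 and miR-155, −0.74 for miR-21 and brightness, −0.43 for miR-132 and brightness, −0.36 for miR-146a and brightness and −0.51 for miR-155 and brightness. Without Printex 90 day 1 replicate 5, r was 0.050 for miR-21 and miR-132, −0.44 for miR-21 and miR-155, −0.066 for miR-132 and miR-155, −0.36 for miR-132 and brightness and 0.42 for miR-155 and brightness. The normexp and series table alternatives change several choices at once.

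Scaling on all probes moved the median difference of all miRNAs to 0.11 on day 1 and −0.16 on day 28, and no scaling moved it to −0.24 on day 1 and 0.13 on day 3. With no filter, 652 of 1079 miRNAs lay at the floor on every array. A first fit that kept them called 652 on day 1 and 652 in the mean of days, all of them without spread and with differences of rounding size, so they were left out of this alternative after that was seen, which left 427 miRNAs and 0 calls. The series table over 29 arrays, the 4 dimmest arrays, the correlations without 1 mouse and the lists without the mice that stand apart were also added after seeing the data.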
